A study of Mus musculus with 3 samples.

Results

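The cells compared here were those of 1 cluster of the E14.5 mouse tail that held many transcripts of *Scx* and those of the same cluster in which no *Scx* transcript was counted. Cells of the tail library with the authors' cluster code 1, the cluster that the study calls tendon, were divided by their unique molecular identifiers (UMIs) of *Scx*, each of which marks 1 captured transcript. Scx-high cells had 3 or more *Scx* UMIs, and Scx-zero cells had 0. There were 240 Scx-high and 325 Scx-zero cells among the 685 cells of the cluster, the 2052 cells of the tail library and the 15827 cells of the series. The other 120 cells of the cluster had 1 or 2 *Scx* UMIs and belonged to neither side.

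The tail cells came from embryos of ScxGFP mice on the C57BL6 strain, dissected at E14.5, dissociated with trypsin and collagenase and depleted of dead cells before 10x Genomics 3′ capture. ScxGFP is a transgene that expresses GFP under regulatory sequence of *Scx*, and the genotype of single embryos is not given. The number of embryos pooled into the library is not given in the sources used here. The D10 culture, mESC-derived cells of an ScxGFP line differentiated to paraxial mesoderm and then treated with TGFβ1, a hedgehog agonist and FGF2, was used only to apply the same rule to other cells, and the D6 PM library was not used.

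*Scx* encodes scleraxis, a basic helix-loop-helix transcription factor of tendon and ligament progenitors, which is also expressed where tendon meets cartilage. In the trunk and tail, axial tendons form from the syndetome, a part of the somite next to the sclerotome, whose cells express *Pax1* and *Pax9* and give rise to vertebrae and intervertebral discs. Differentiated tendon cells add *Mkx*, *Tnmd* and small leucine-rich proteoglycans such as *Fmod* to a matrix of collagen I, whereas chondrocytes are known for *Sox9*, *Sox5*, *Sox6* and collagens II, IX and XI.

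*Scx* UMIs chose the sides, so that *Scx* itself is given only as a description. Scx-high cells had a median of 25 *Scx* UMIs and a maximum of 768. Just inside the threshold were 15 cells with 3 UMIs, and just outside it were 35 cells with 2 and 85 cells with 1. Blood cells of the same library (code 12), which should lack *Scx*, had at most 2 UMIs, and 0 of 128 passed the rule, while 10.2% (5.52 to 16.7) had at least 1 UMI at a median depth of 8391.5 UMIs. Code 12 was the 1 cluster of the library without a cell that passed the rule, and its cells were shallower than those of code 1. In code 6, the other cluster that the study calls blood, 4 of 71 cells (5.63%, 1.56 to 13.8) passed it, with a maximum of 46 *Scx* UMIs. Blood cells below are those of code 12. In the clusters other than codes 1, 2, 4 and 12, 2.04% to 20.7% of cells had 3 or more *Scx* UMIs, with a maximum of 253 in a cell of code 10.

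Depth was alike on both sides. Scx-high cells had a median of 13477.5 UMIs and 4825.5 genes per cell, and Scx-zero cells 13057 UMIs and 4733 genes. Mitochondrial transcripts took a median of 3.17% and 3.22% of UMIs. In all, 3674654 UMIs were summed over Scx-high and 4628693 over Scx-zero cells. No cell of either side was called as a doublet by Scrublet, which called 9 of the 2052 tail cells, and no barcode of either side occurred in the culture library. *Xist* was found in 55 Scx-high and 51 Scx-zero cells and a transcript of a Y-linked gene in 193 and 270, so that cells of both sexes were on each side. Both kinds of transcript were found in 11 Scx-high and 6 Scx-zero cells, which Scrublet did not call as doublets.

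Levels are in CPM: for each gene, UMIs were added up within a side, divided by all UMIs of that side and put on the usual scale of this unit. Ratios are Scx-high over Scx-zero, with exact 95% conditional binomial intervals in parentheses that cover counting error only. All cells came from 1 library and cells are not replicates, so no test was made and no difference is given as significant. Of 9211 genes with at least 100 UMIs over both sides, 93 (1.01%) were at least 2-fold higher in Scx-high cells and 149 (1.62%) at least 2-fold lower. The median log2 ratio over all of them was 0.01. In cells with 8000 or more UMIs, 226 Scx-high and 294 Scx-zero, 89 genes (0.979%) were at least 2-fold higher and 136 (1.5%) lower, of which 86 and 134 were shared with the full comparison. Most of these genes belonged to none of the gene lists described here, 64 of the 93 higher and 112 of the 149 lower ones. The 15 genes named by rule in each direction were picked on these same values, from 41 eligible higher and 52 eligible lower genes, so their sizes describe these cells and are not support for the difference. The 15 higher genes include the transgene *ScxGFP*, which is not independent of a rule on *Scx*.

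**Figure D1:**
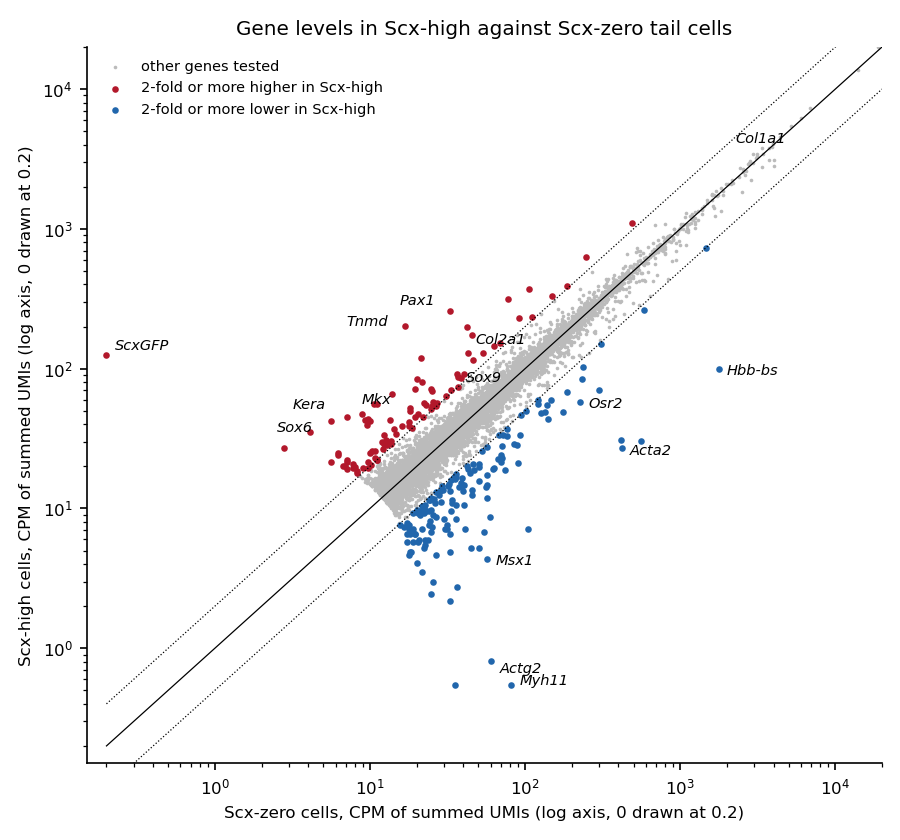
CPM of summed UMIs of the 9211 genes tested, in Scx-zero cells on the x axis and Scx-high cells on the y axis, both log axes. Each point is 1 gene, the solid line marks equal levels, the dotted lines mark 2-fold, and the 93 red and 149 blue genes lie beyond them, with *Tnmd* and *Pax1* far above the line and *Myh11*, *Acta2* and *Hbb-bs* far below it.

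The reporter followed the endogenous gene. *ScxGFP* had 463 UMIs in 123 of 240 Scx-high cells (126 CPM, 115 to 138) and 0 UMIs in 325 Scx-zero cells. With a floor of 3 counts put in for the Scx-zero side, the ratio was 194. The interval, from the counted 0 UMIs, had a lower limit of 157.5 and no upper limit. After random thinning of the cells to a common depth of 5000 UMIs, which left 236 Scx-high and 314 Scx-zero cells, 30.5% (24.7 to 36.8) of Scx-high cells and 0% of Scx-zero cells (up to 1.17%) kept a UMI of the transgene. In the other direction, many Scx-high cells had no transgene UMI.

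Among genes known from tendon, *Tnmd*, *Mkx*, *Kera*, *Fmod* and *Chodl* were at least 2-fold higher. *Tnmd*, the transmembrane glycoprotein tenomodulin of differentiated tendon cells, had 742 UMIs in 67 Scx-high cells and 78 UMIs in 27 Scx-zero cells. Its level was 202 against 16.9 CPM, a ratio of 12 (9.48 to 15.3). Few cells carried it, 7 of which held more than 50% and 10 of which held 59.0% of its Scx-high UMIs, and the ratio was 7.36 with sides chosen after thinning and 19.3 without cells with a UMI of *Top2a* or *Mki67*. *Mkx*, the homeobox factor Mohawk of tendon, was at 43.8 against 9.72 CPM (4.51, 3.22 to 6.42), in 64 and 32 cells. *Kera*, the proteoglycan keratocan, was 6.30 (4.31 to 9.45) times as high and was carried by fewer cells, 19 Scx-high and 10 Scx-zero, and 3 cells held 73.9% of its Scx-high UMIs. *Fmod*, fibromodulin, was at 71.0 against 19.4 CPM (3.65, 2.86 to 4.70), in 107 and 60 cells, and *Chodl*, a membrane lectin, at 120 against 21.2 CPM (5.66, 4.53 to 7.11), in 69 and 36 cells. At fixed depth a *Tnmd* UMI was found in 21.2% (16.2 to 27.0) of Scx-high and 5.41% (3.19 to 8.53) of Scx-zero cells, and in 0% of blood cells. The medians of the 3 kinds of cell were 13523, 13490 and 8449 UMIs before thinning. Most cells of each side thus had no *Tnmd* UMI at this depth, and the sides overlapped cell by cell.

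Counted over the list of 25 tendon matrix genes, 18 passed the filter of 100 UMIs, 4 of them were at least 2-fold higher (*Tnmd*, *Kera*, *Chodl* and *Fmod*) and 0 at least 2-fold lower, where 1.01% and 1.62% of all genes tested were. The median log2 ratio of the 18 was 0.17. *Dcn*, the collagen-binding proteoglycan decorin, was at 1228 against 1683 CPM (0.73, 0.703 to 0.757), *Lum*, lumican, at 466 against 708 CPM (0.657, 0.620 to 0.697), and *Postn*, periostin, at 296 against 493 CPM (0.600, 0.558 to 0.645). *Bgn* (1.11), *Ogn* (1.01), *Fbn1* (0.997) and *Fbn2* (1.09) differed little, and *Tnc* (1.30), *Thbs4* (1.36), *Aspn* (1.57) and *Abi3bp* (1.76) lay above 1 without reaching 2-fold. Of the 14 tendon regulators, 10 passed the filter, with 2 higher and 1 lower, against the same 1.01% and 1.62%, and a median log2 ratio of 0.38. The higher ones were *Mkx* and *Meox1*, a homeobox factor of the somite (80.0 against 21.6 CPM, 3.70, 2.94 to 4.69). *Six2* was the lower one, at 5.99 against 20.7 CPM (0.289, 0.173 to 0.463). *Tcf15*, a somite factor (1.77, 1.32 to 2.38), was below the 2-fold line, and *Egr1*, a mechanically responsive factor of tendon, was near equal (0.910, 0.852 to 0.972).

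The other higher genes named by rule are not specific to tendon matrix. *Fli1*, an ETS transcription factor, was at 55.8 against 11 CPM (5.06, 3.71 to 7.02) with UMIs in 120 Scx-high and 34 Scx-zero cells. *Htra3*, a secreted serine protease, was at 55.5 against 10.6 CPM (5.24, 3.82 to 7.32), in 63 and 34 cells, and *C1qtnf3*, a secreted protein of developing cartilage, at 315 against 77.6 CPM (4.06, 3.61 to 4.59), in 102 and 63 cells. *Rflnb*, a filamin-binding protein, was at 174 against 45.2 CPM (3.85, 3.28 to 4.52), in 140 and 111 cells, and *Fbxo32*, the ubiquitin ligase subunit atrogin, at 84.9 against 20.1 CPM (4.23, 3.34 to 5.39), in 56 and 40 cells. With sides chosen after thinning, the ratio of *Fbxo32* was 2.19. For each of these 5 genes, cells with and without UMIs were found on both sides.

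*Tnmd* and *Chodl* illustrate the start sites of genes that were higher in Scx-high cells, with and without the E-box letters CANNTG that basic helix-loop-helix factors are known to bind. The 250 bases before the annotated start are shown from RefSeq on GRCm38.p6, 5′ to 3′ on the plus strand, in lower case with each CANNTG in capitals. They lie at chrX:133850758-133851007 for *Tnmd* and chr16:78930698-78930947 for *Chodl*.
Tnmd: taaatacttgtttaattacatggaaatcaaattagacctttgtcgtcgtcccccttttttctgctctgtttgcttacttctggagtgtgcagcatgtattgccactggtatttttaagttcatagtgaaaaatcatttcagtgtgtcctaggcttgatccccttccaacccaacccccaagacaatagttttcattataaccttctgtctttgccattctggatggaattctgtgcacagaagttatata
Chodl: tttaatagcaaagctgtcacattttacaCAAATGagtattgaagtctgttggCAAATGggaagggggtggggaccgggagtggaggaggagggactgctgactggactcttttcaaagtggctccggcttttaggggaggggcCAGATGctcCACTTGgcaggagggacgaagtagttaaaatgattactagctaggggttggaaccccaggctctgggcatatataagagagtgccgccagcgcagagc
The window of *Tnmd* held 0 matches and that of *Chodl* 4. The motif is searched on 1 strand because its 6 letters match on both strands at the same place. Of the 15 higher genes, 9 had a window in the RefSeq table and 5 of these held a match, against 7 of 9 of the 15 lower genes and 66.2% of all 32851 windows. A match is a description of letters only, and its absence says only that these letters are not in this window.

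Genes of sclerotome and cartilage were higher together. Of 20 cartilage genes, 13 passed the filter, 12 of them were at least 2-fold higher and 0 lower, against the 1.01% of all genes tested that were higher, and their median log2 ratio was 1.53. *Pax1*, the paired-box factor of the sclerotome, was at 257 against 32.8 CPM (7.83, 6.59 to 9.36), with UMIs in 99 of 240 and 40 of 325 cells. *Pax9*, its paralog, was at 129 against 43.0 CPM (3.01, 2.54 to 3.57), in 124 and 88 cells. *Sox9*, the main regulator of chondrocytes, was at 91.7 against 36.5 CPM (2.51, 2.08 to 3.04), and its partners *Sox6* at 41.9 against 5.62 CPM (7.46, 4.90 to 11.8) and *Sox5* at 28.3 against 13.0 CPM (2.18, 1.57 to 3.05).

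The collagens of cartilage followed the same direction. *Col2a1*, the fibrillar collagen of cartilage, was at 199 against 42.1 CPM (4.72, 4.03 to 5.56) and was found in 162 of 240 Scx-high and 95 of 325 Scx-zero cells. *Col9a3* (4.76, 3.6 to 6.38), *Col9a1* (2.76, 2.21 to 3.46) and *Col9a2* (2.20, 1.91 to 2.53) encode the 3 chains of collagen IX, and *Col11a1* (3.47, 3.13 to 3.85) a chain of collagen XI. With sides chosen after thinning, *Col2a1* was at 2.81 and *Col9a3* at 3.08. *Matn4*, matrilin 4, was 2.88 (2.31 to 3.63) times as high and *Cnmd*, chondromodulin, 2.91 (1.90 to 4.56) times. Some of these genes were carried by few cells. The top 10 cells held 58.3% of the Scx-high UMIs of *Col9a3*, 51.6% of *Col9a1*, 51.0% of *Matn4* and 47.3% of *Cnmd*. For *Col2a1*, *Col11a1* and *Col9a2* the top 10 cells held 33.8%, 28.0% and 22.3%. Genes of mature cartilage were scarcely measured on either side. *Acan*, the main proteoglycan of cartilage, had 2 UMIs in Scx-high and 6 in Scx-zero cells, *Matn1* 1 and 1, and *Chad* 1 and 0, while *Hapln1*, the link protein, was the 1 measured gene of the list without a 2-fold difference (1.04, 0.706 to 1.52).

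The general fibrillar collagens were measured on both sides. *Col1a1*, the main chain of tendon collagen, was at 3344 against 3108 CPM (1.08, 1.05 to 1.10), and *Col1a2* at 2440 against 2613 CPM (0.934, 0.909 to 0.960). *Col3a1* was lower, at 2810 against 4014 CPM (0.700, 0.683 to 0.717), as were *Col6a1* (0.525, 0.488 to 0.565), *Col6a2* (0.620, 0.570 to 0.674) and *Col6a3* (0.733, 0.681 to 0.790), the chains of collagen VI. Of the 14 genes measured in the list of fibrillar and related collagens, *Col11a1* was the 1 that was 2-fold higher and *Col8a1* (0.252, 0.183 to 0.340) the 1 that was 2-fold lower, where 1.01% and 1.62% of all genes tested were. The list summed to 12159 against 13679 CPM, a ratio of 0.889 (0.878 to 0.900). Of the 22 measured genes of collagen processing 0 reached 2-fold, a count near the share of all genes. The highest of them was *Plod2* (1.74, 1.53 to 1.98), a lysyl hydroxylase, and the lowest was *Lox* (0.645, 0.586 to 0.709), the lysyl oxidase.

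Within the cluster, levels were followed over bands of 0, 1 to 2, 3 to 9, 10 to 19, 20 to 39 and 40 or more *Scx* UMIs, which held 325, 120, 74, 33, 41 and 92 cells. Cells with 40 or more *Scx* UMIs were also the deepest, with a median of 15637 UMIs against 12129 to 13560 in the other bands, and since *Scx* was counted in UMIs, band and depth are not independent, and the part of depth in these courses was not tested. *ScxGFP* was higher in each next band, from 0 CPM to 2.20, 9.80, 25.8, 54.4 and 264 CPM. *Tnmd* was at 16.9, 67.0, 31.4, 119, 49.4 and 402 CPM, so that it had no steady course below the top band and was highest in it. *Kera* stayed between 3.29 and 13.9 CPM and reached 94.7 CPM in the top band, *Mkx* between 8.24 and 25.8 CPM and then 77.8 CPM, and *Htra3* between 10.6 and 29.7 CPM and then 101 CPM.

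The sclerotome genes had another course. *Pax1* was at 32.8, 74.1, 189, 186, 371 and 281 CPM, and *Pax9* at 43.0, 76.3, 144, 113, 188 and 102 CPM, both highest at 20 to 39 *Scx* UMIs. *Sox9* was at 36.5, 74.7, 107, 77.2, 122 and 74.6 CPM, and *Sox6* was highest at 10 to 19 UMIs, at 69.3 CPM, against 31.1 CPM in the top band. *Gli1* and *Ptch1*, targets of hedgehog signaling, were highest at 20 to 39 UMIs, at 39.5 and 173 CPM, and lower in the top band, at 14.3 and 61.0 CPM. The counting intervals at 20 to 39 and 3 to 9 UMIs overlapped for *Pax9* (155 to 226 and 122 to 169 CPM) and *Sox9* (95.7 to 153 and 87.7 to 129). They also overlapped for *Gli1* (25.3 to 58.8 and 21.4 to 44.3) and *Ptch1* (141 to 209 and 102 to 146). Those of *Pax1* did not (324 to 422 and 163 to 218). *Col1a1* lay between 2311 and 3117 CPM up to 39 *Scx* UMIs and was 4204 CPM in the top band. *Osr2* was lower above 2 *Scx* UMIs, at 226 and 165 CPM in the lowest bands and 46.1 to 85.2 CPM in the others. *Twist1*, a mesenchymal helix-loop-helix factor, was at 944 CPM at 0 UMIs and 450 CPM at 40 or more.

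**Figure D2:**
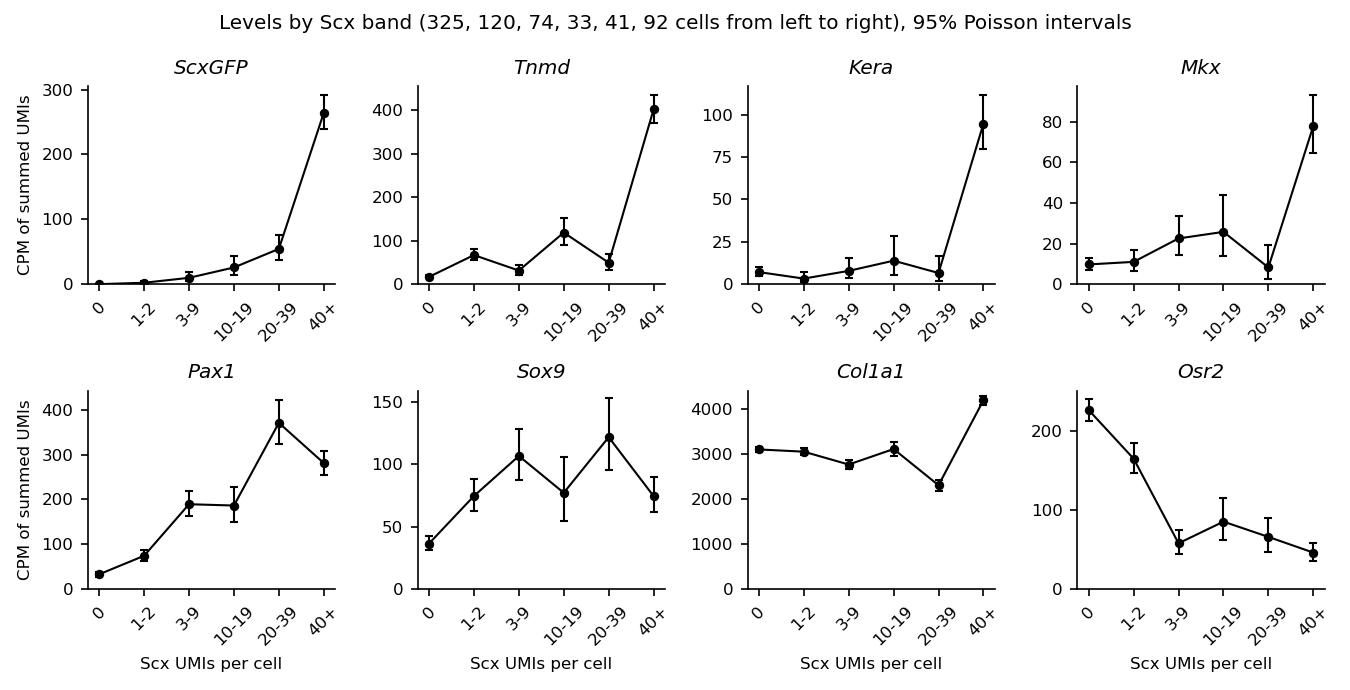
CPM of summed UMIs on the y axis for 8 genes over 6 bands of *Scx* UMIs per cell on the x axis, in 685 cells of tail cluster code 1, with exact 95% Poisson intervals as bars. *ScxGFP*, *Tnmd*, *Kera* and *Mkx* are highest in the 92 cells with 40 or more *Scx* UMIs, *Pax1* and *Sox9* at 20 to 39, and *Osr2* in the cells without *Scx*. The bars of *Sox9* at 20 to 39 and at 3 to 9 overlap.

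Scx-high cells were therefore also compared among themselves, the 92 cells with 40 or more *Scx* UMIs against the 148 with 3 to 39, a division chosen after seeing the data. Of 6491 genes tested, 36 (0.555%) were at least 2-fold higher in the top band and 38 (0.585%) at least 2-fold lower. Those higher included *Kera* (10.6, 6.57 to 18.2), *Tnmd* (7.03, 5.78 to 8.61), *Htra3* (4.50, 3.24 to 6.35), *Mkx* (4.05, 2.82 to 5.92), *Col13a1*, a transmembrane collagen (4.15, 2.74 to 6.45), *Abi3bp* (2.68, 2.22 to 3.26), *Col11a1* (2.14, 1.92 to 2.39), *Col14a1* (2.10, 1.88 to 2.35) and *Fmod* (2.12, 1.65 to 2.75). Some of these ratios rest on few cells. The top 10 cells held 92.7% of the Scx-high UMIs of *Kera*, 59.0% of *Tnmd*, 52.5% of *Htra3* and 44.7% of *Mkx*. For *Abi3bp*, *Fmod* and *Col11a1* they held 41.7%, 32.6% and 28.0%. Those lower included *Sox5* (0.350, 0.206 to 0.571), *Ptch1* (0.465, 0.364 to 0.589), *Cxcl12*, a chemokine (0.449, 0.366 to 0.547), *Hoxa13* (0.335, 0.219 to 0.499) and *Nts*, the neurotensin precursor, with 0 UMIs in the top band and 74.5 CPM below it. *Fbxo32*, named above as higher in Scx-high cells, was also lower in the top band, at 33.7 against 122 CPM (0.277, 0.201 to 0.374). *Pax1* (1.17, 1.03 to 1.33) and *Col2a1* (1.22, 1.05 to 1.41) were close to equal between these divisions. *Col1a1* (1.54, 1.49 to 1.6), *Col1a2* (1.44, 1.38 to 1.5) and *Col12a1* (1.52, 1.37 to 1.67) were higher in the top band, and *Col3a1* was not (0.957, 0.920 to 0.995).

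At fixed depth, pairs of these genes were counted in single cells. *Tnmd* and *Mkx* were found together in 7.20% (4.25 to 11.3) of 236 Scx-high cells, where the product of their shares is 2.96%, *Tnmd* and *Fmod* in 8.48% (5.25 to 12.8) against 4.49%, and *Tnmd* and *Kera* in 3.39% (1.48 to 6.57) against 1.08%. *Tnmd* and *Pax1* were found together in 6.78% (3.93 to 10.8), with a product of 7.0%, and *Tnmd* and *Sox9* in 3.81% (1.76 to 7.12) against 5.12%, and *Tnmd* and *Col2a1* in 13.6% (9.46 to 18.6) against 9.79%. *Pax1* was found with *Pax9* in 14.8% (10.6 to 20.02) of cells against 11.1%, with *Sox9* in 9.32% (5.94 to 13.8) against 7.98%, and with *Col2a1* in 20.8% (15.8 to 26.5) against 15.3%. The product lay within the interval for *Tnmd* with *Pax1*, *Sox9* and *Col2a1* and for *Pax1* with *Pax9* and *Sox9*, and below it for *Tnmd* with *Mkx*, *Fmod* and *Kera* and for *Pax1* with *Col2a1*.

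Of the 22 measured TGFβ genes and the 9 measured hedgehog genes 0 reached 2-fold in either direction, which is near the 1.01% and 1.62% of all genes tested, and the median log2 ratios were 0.18 and 0.25. The highest TGFβ genes were *Skil* (1.91, 1.59 to 2.29), a feedback inhibitor, and *Tgfbi* (1.77, 1.58 to 1.98), a matrix protein induced by TGFβ. The ligand *Tgfb3* was at 63.7 against 43.6 CPM (1.46, 1.20 to 1.77), *Tgfb2* at 308 against 269 CPM (1.14, 1.05 to 1.24), and the receptor *Tgfbr2* at 129 against 93.1 CPM (1.38, 1.21 to 1.58). In the hedgehog list, the receptor *Ptch1* was near equal (1.02, 0.891 to 1.18), and *Gli1* (1.87, 1.33 to 2.64) and *Gli3* (1.63, 1.42 to 1.86) lay above 1. Of 23 measured BMP genes 3 were at least 2-fold higher, against 1.01% of all genes, and 0 lower: the receptor *Bmpr1b* (39.7 against 9.51 CPM, 4.18, 2.97 to 6.0), the modulator *Bmper* (2.21, 1.52 to 3.26) and the ligand *Bmp3* (2.03, 1.41 to 2.93). In cells with 8000 or more UMIs, the ratio of *Bmp3* was 1.87. The ligand *Fgf9* (2.49, 1.74 to 3.61) was the 1 of 14 measured FGF genes past 2-fold.

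Of all genes tested, 1.62% were at least 2-fold lower and 1.01% higher, against which the counts of WNT, retinoic acid and adhesion genes stand. Of 21 measured WNT genes 4 were at least 2-fold lower and 0 higher, the ligands *Wnt2* (0.393, 0.298 to 0.513), *Wnt4* (0.437, 0.352 to 0.538) and *Wnt5a* (0.439, 0.390 to 0.494) and the pathway inhibitor *Nkd1* (0.472, 0.381 to 0.582), yet the median log2 ratio of the list was -0.06. Of 14 measured retinoic acid genes 3 were lower and 0 higher: the carrier *Rbp4* (0.264, 0.159 to 0.421), the synthesis enzyme *Aldh1a2* (0.411, 0.313 to 0.534) and the retinol receptor *Stra6* (0.420, 0.278 to 0.621). *Rbp4* was measured in 26 Scx-zero cells, of which 2 held more than 50% of its UMIs. Of 16 adhesion genes the integrin subunits *Itga1* (0.276, 0.196 to 0.381), *Itga6* (0.337, 0.218 to 0.509) and *Itga4* (0.475, 0.335 to 0.664) were lower. Without the cells rich in mural and haemoglobin transcripts described below, *Itga1* was at 0.819 (0.539 to 1.24) and *Itga4* at 0.775 (0.529 to 1.13), and *Itga6* was the 1 adhesion gene still at least 2-fold lower.

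Of 39 *Hox* genes in the files, 23 passed the filter, 4 were at least 2-fold higher and 0 lower, where 1.01% and 1.62% of all genes tested were, with a median log2 ratio of 0.41. The higher ones were *Hoxb13* (45.2 against 19.4 CPM, 2.32, 1.79 to 3.04), *Hoxc13* (234 against 110 CPM, 2.13, 1.91 to 2.38), *Hoxb9* (2.02, 1.53 to 2.68) and *Hoxa7* (2.02, 1.37 to 2.99). Without the cells rich in mural and haemoglobin transcripts, *Hoxb9* was at 1.95. *Hoxa13* (0.898, 0.728 to 1.11) and *Hoxd13* (0.737, 0.551 to 0.980) were not higher. The cell cycle list had 0 of 18 genes past 2-fold in either direction, again near the share of all genes, and a median log2 ratio of 0.02. The list of immediate early genes, which dissociation can induce, had 0 of 13 past 2-fold and a median of -0.25, with *Fos* at 764 against 1004 CPM and *Jun* at 773 against 1098 CPM.

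**Figure D3:**
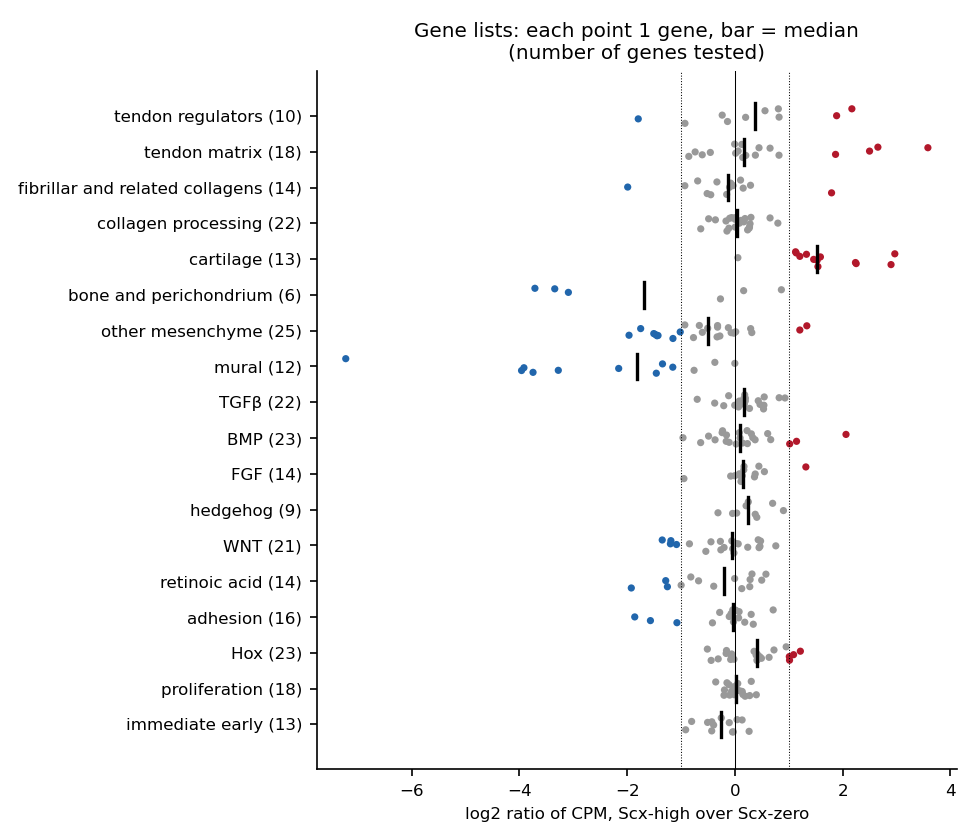
Log2 ratio of CPM, Scx-high over Scx-zero, on the x axis for each measured gene of 18 lists on the y axis, with the number of genes in parentheses, a bar at the median, and genes past 2-fold in red (higher) or blue (lower). The cartilage list lies to the right of the others with a median of 1.53, and the mural and bone lists reach farthest to the left.

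The genes lowest in Scx-high cells came from few Scx-zero cells. *Myh11*, the myosin heavy chain of smooth muscle, was at 0.544 against 81.2 CPM (0.0067, 0.000808 to 0.0244), with UMIs in 2 Scx-high and 25 Scx-zero cells, and 10 cells held 86.4% of its UMIs. *Actg2*, smooth muscle actin, had 3 against 280 UMIs, with 1 cell holding more than 50% of them, and *Acta2*, the actin of smooth muscle and myofibroblasts, was at 26.9 against 419 CPM (0.0643, 0.0520 to 0.0787), with 80.6% of its UMIs in 10 cells. Of 12 mural genes, all measured, 9 were at least 2-fold lower, against 1.62% of all genes tested, and 0 higher, with a median log2 ratio of -1.81. *Rgs5*, a pericyte gene, was at 5.17 against 50.1 CPM (0.103, 0.0610 to 0.165). Cells with UMIs of 6 or more of the 12 mural genes numbered 24 on the Scx-zero and 3 on the Scx-high side.

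Haemoglobin was the other such group. *Hbb-bs* had 8182 UMIs over Scx-zero cells, of which 1 cell held 4407 and 3 cells 94.6%, against 366 UMIs over Scx-high cells (0.0564, 0.0506 to 0.0626). *Hbb-bt* (0.0545), *Hba-a1* (0.0742) and *Hba-a2* (0.0681) had the same form, and since multi-mapping reads were not counted, the split of UMIs within each pair of near-identical genes is uncertain. Haemoglobin made up 1% or more of UMIs in 3 Scx-zero and 0 Scx-high cells. At fixed depth, *Hbb-bs* was found in 42.4% of Scx-high and 40.8% of Scx-zero cells, and in 100% of blood cells, so that a low level was found in a like share of both sides.

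Without these cells, 26 Scx-zero and 3 Scx-high, a step added after seeing the data, the ratio of *Hbb-bs* was 1.03 (0.893 to 1.19) and that of *Tagln*, a smooth muscle protein, 1.01 in place of 0.364. *Acta2* remained lower at 0.254 (0.202 to 0.316) and *Myh11* at 0.0100 (0.000251 to 0.0568). Over the 8987 genes then tested, 121 (1.35%) in place of 149 were at least 2-fold lower and 90 (1%) in place of 93 higher, of which 108 and 84 were shared. Of the 7 mural genes then measured 3 were at least 2-fold lower. *Tnmd* (14.4, 11.1 to 19.1), *Pax1* (7.27, 6.12 to 8.70) and *Col2a1* (4.39, 3.73 to 5.18) kept their direction, and the cartilage list again had 12 of 13 genes at least 2-fold higher.

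**Figure D4:**
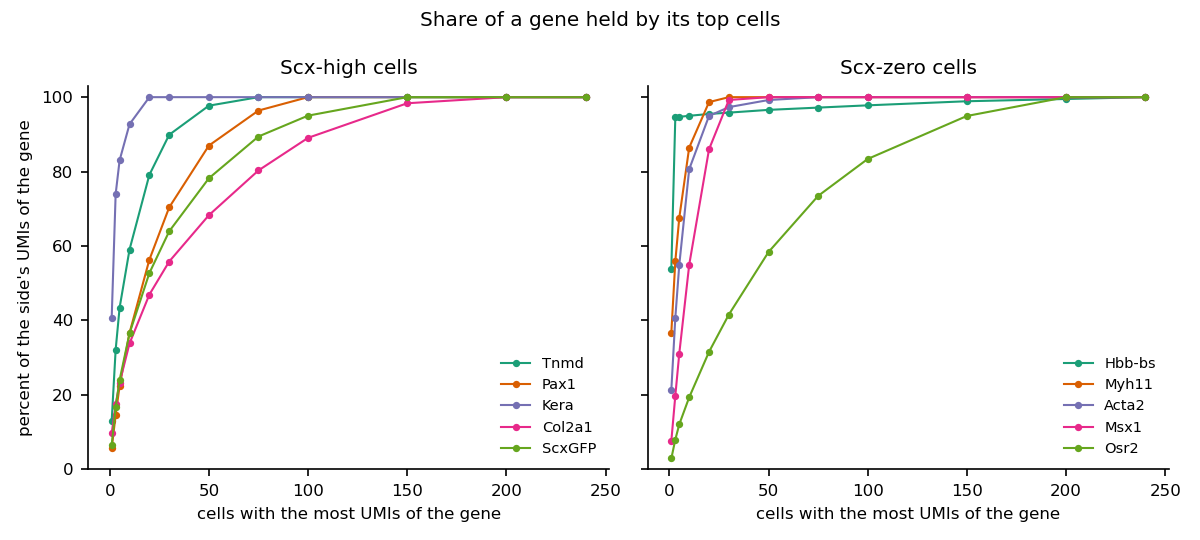
Percent of a gene's UMIs on 1 side (y axis) held by the cells with most of them (x axis, number of cells), for 5 genes in Scx-high and 5 in Scx-zero cells. For *Hbb-bs* 3 cells hold 94.6% and for *Kera* 73.9%, while *Osr2* needs 50 cells to reach 58.4%.

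Other genes lower in Scx-high cells were spread over many Scx-zero cells. *Osr2*, an odd-skipped zinc finger factor of loose connective tissue and joints, was at 58.0 against 226 CPM (0.256, 0.220 to 0.297), with UMIs in 73 of 240 Scx-high and 198 of 325 Scx-zero cells. *Osr1*, its paralog, was at 68.3 against 186 CPM (0.367, 0.318 to 0.423). *Zeb2*, a zinc finger repressor of mesenchymal cells, was at 70.8 against 300 CPM (0.236, 0.206 to 0.270), in 74 and 217 cells. At fixed depth, *Zeb2* was found in 21.2% (16.2 to 27.0) of Scx-high and 51.9% (46.2 to 57.6) of Scx-zero cells, and *Osr2* in 20.3% (15.4 to 26.1) and 42.7% (37.1 to 48.4), against 0.82% of blood cells for each.

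*Msx1*, a homeobox factor of undifferentiated mesenchyme and the bone lineage, was at 4.35 against 57.0 CPM (0.0763, 0.0430 to 0.126), with UMIs in 3 and 32 cells. In cells with 1 or 2 *Scx* UMIs it was at 19.2 CPM, and at 20 to 39 *Scx* UMIs 12 UMIs gave 19.8 CPM. Without the cells rich in mural and haemoglobin transcripts its ratio was 0.0177 (0.0048 to 0.0460), from 4 against 264 UMIs. *Dlx5* (0.0986, 0.0440 to 0.194; 7 and 32 cells) and *Msx2* (0.117, 0.0571 to 0.218; 10 and 36 cells) had the same direction, and they were the 3 genes at least 2-fold lower among the 6 measured of the bone and perichondrium list, where 1.62% of all genes were. At fixed depth *Msx1* and *Dlx5* were found together in 5.10% (2.94 to 8.14) of 314 Scx-zero cells, where the product of their shares is 0.791%, and *Msx1* and *Osr2* in 5.10% against 4.08%. *Runx2*, the main regulator of osteoblasts, went the other way (1.82, 1.30 to 2.55).

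Among 25 measured genes of other mesenchyme, 8 were at least 2-fold lower and 2 higher, where 1.62% and 1.01% of all genes were, with a median log2 ratio of -0.50. Besides *Osr1* and *Osr2*, the lower ones included *Tbx18* (0.298, 0.204 to 0.424), *Dpt*, dermatopontin (0.352, 0.232 to 0.522), *Col6a6* (0.359, 0.292 to 0.440), *Cxcl14* (0.451, 0.419 to 0.485) and *Dlk1* (731 against 1476 CPM, 0.495, 0.473 to 0.518). The higher ones were the transcription factors *Ebf2* (232 against 91.8 CPM, 2.53, 2.25 to 2.84) and *Foxd1* (145 against 62.9 CPM, 2.31, 2.0 to 2.67). *Slc26a7*, an anion transporter (0.126, 0.0797 to 0.190), *Tac1*, the precursor of substance P (0.148, 0.0990 to 0.213), and *Gap43*, a protein of growing axons (0.212, 0.151 to 0.293), were also among the lower genes named by rule. The lists of endothelial, skeletal muscle, neural, immune and epidermal markers summed to 3.89 to 141 CPM on either side, and *Sox10*, *Myf5*, *Cdh1* and *C1qa* had 0 UMIs on both.

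The same rule was then applied to cells that it had not used. These were the cells of tail code 2 (73 Scx-high, 85 Scx-zero) and of tail code 4 (149 and 60), both from the same library but different cells, and code 1 of the D10 culture (2331 and 211), another library. By their cell numbers, 186 and 241, tail codes 2 and 4 match the clusters that the study numbers 1 and 3. The study proposes that its cluster 1 holds proliferating tendon cells and states that its cluster 3 lacked *Scx*. In code 4, however, 149 of 241 cells (61.8%) had 3 or more *Scx* UMIs. In tail code 2, 1.26% of 6293 genes were at least 2-fold higher and 2.07% lower. Of the 15 higher genes named above, 12 were measured there and 12 were at least 2-fold higher, *Tnmd* at 260 against 8.58 CPM (30.3, 18.5 to 53.5), *Pax1* at 659 against 25.7 CPM (25.6, 19.2 to 34.9) and *Chodl* at 79.7 against 3.75 CPM (21.2, 10.0 to 53.8). The 12 include the reporter *ScxGFP* (223, 39.7 to 8867), which is expressed under *Scx* sequence and so is tied to the rule. *Osr2* (0.265, 0.202 to 0.343), *Zeb2* (0.194, 0.158 to 0.236) and *Acta2* (0.133, 0.0994 to 0.176) were lower. Of the 15 lower genes named above, 10 were measured there, 6 at least 2-fold lower and 4, the haemoglobin genes, at least 2-fold higher.

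In tail code 4, 4.37% of 5448 genes were at least 2-fold higher and 2.66% lower. Of the 15 higher genes, 10 were measured there, 4 at least 2-fold higher and 4 at least 2-fold lower. The 4 higher ones include the reporter *ScxGFP* (45.9, 12.6 to 382). Of the 15 lower genes, 6 were measured. The 4 at least 2-fold lower were the haemoglobin genes, while *Osr2* was at least 2-fold higher and *Zeb2* did not reach 2-fold. *Pax1* (4.81, 4.25 to 5.46), *Pax9* (4.6, 3.41 to 6.35) and *Fmod* (2.13, 1.57 to 2.92) were higher as in code 1. The cartilage list was reversed, with 16 of 18 measured genes at least 2-fold lower and 2 higher: *Col2a1* was at 1899 against 7894 CPM (0.241, 0.231 to 0.250) and *Sox9* at 704 against 2089 CPM (0.337, 0.314 to 0.362). *Col1a1* was at 932 against 315 CPM (2.96, 2.60 to 3.37), and *Osr2* at 53.9 against 5.86 CPM (9.19, 3.82 to 28.9). Scx-zero cells of code 4 thus held much more cartilage transcript than Scx-zero cells of code 1, in which *Col2a1* was at 42.1 CPM.

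In the culture, 2331 of the 2964 code 1 cells passed the threshold, and the Scx-zero cells were shallower, with a median of 3275 UMIs against 5249. There 6.26% of 9973 genes were at least 2-fold higher and 2.56% lower. Of 5 measured lower genes 1 was at least 2-fold higher and 1 lower. Of 14 measured higher genes 5 were at least 2-fold higher and 1 lower. The 5 were the reporter *ScxGFP* (15.4, 5.25 to 74.8), *Tnmd* (26.4 against 6.82 CPM, 3.88, 1.65 to 12), *Chodl* (2.45, 1.91 to 3.19), *Rflnb* (2.69, 2.38 to 3.05), and *Meox1* (2.30, 1.71 to 3.17). *Pax1* was lower, at 16.3 against 34.1 CPM (0.478, 0.316 to 0.754), and *Col2a1* (0.729, 0.633 to 0.843), *Sox9* (1.07, 0.850 to 1.37) and *Mkx* (1.25, 0.860 to 1.90) were not past 2-fold. *Zeb2* (0.222, 0.165 to 0.305) and *Osr1* (0.110, 0.0814 to 0.151) were lower, as in tail codes 1 and 2. In tail code 4, *Zeb2* was at 0.733 (0.493 to 1.10) and *Osr1* had 10 against 0 UMIs. In culture cells with 5000 or more UMIs only 28 were Scx-zero, and the ratio of *Tnmd* was 6.14 (1.10 to 243) and that of *Zeb2* 0.366 (0.181 to 0.861). At this depth 10.3% of genes were at least 2-fold higher and 3.97% lower. Of the 14 measured higher genes 5, again with *ScxGFP* among them, were then at least 2-fold higher and 0 lower. Of the 5 measured lower genes 2 were at least 2-fold lower and 0 higher.

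**Figure D5:**
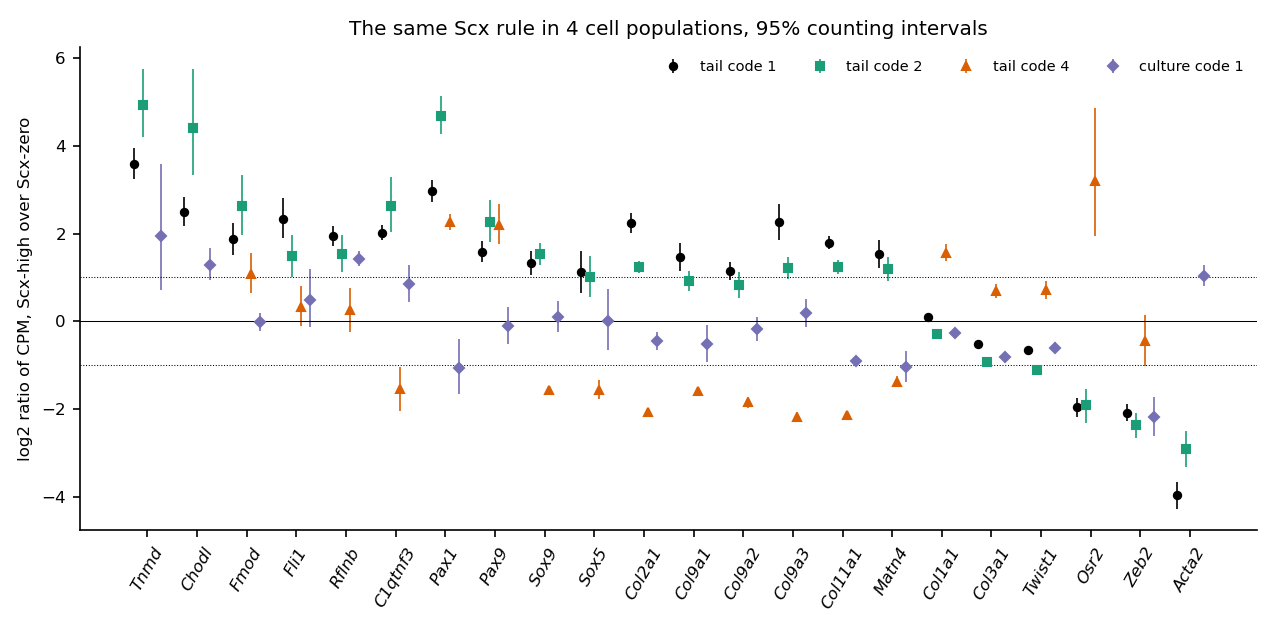
Log2 ratio of CPM, Scx-high over Scx-zero, on the y axis for 22 genes on the x axis in 4 populations, with 95% counting intervals as bars and genes under 100 UMIs left out. Tail codes 1 and 2 lie on the same side of 0 for the tendon, sclerotome and cartilage genes shown, tail code 4 lies below 0 for the cartilage genes, and the culture lies near 0 for most of them.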

How the data were processed

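Single-cell RNA-seq counts of 1 tail library and, for 1 comparison, 1 D10 culture library were used. The deposited files hold raw UMI counts, which the authors had not normalized, for 27755 genes in each cell, together with the cell's cluster code. Per the study's methods, cellranger made them from 10x 3′ v3 reads without multi-mapping reads, cells high in mitochondrial transcripts or at either end of depth were removed, and Seurat 3.0 gave the clusters. The genome build of the counts is not given in the sources used here. Clusters were not made anew. Members and gene lists were chosen with earlier results of these data known.

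UMIs were summed per side in NumPy 2.4.6 under Python 3.11.15, intervals came from SciPy 1.17.1, and a side at 0 was set to 3 counts for a ratio. Genes needed 100 UMIs over both sides, so that a gene could pass through the side where it was high. Counts of genes past 2-fold within a list are not independent of this filter. Named genes were members of fixed lists and, in each direction, the 15 genes with the interval bound farthest from 1 among those with 50 CPM in the higher side and 2-fold in all cells and in cells of 8000 or more UMIs. Genes of the comparison within Scx-high cells, and those under other observations, were named after their values were seen. Some genes that the rule names are not reported here. Intervals are Poisson for levels, conditional binomial for ratios and Clopper-Pearson for shares, all at 95%. Doublets were called with Scrublet in Scanpy 1.11.5 at an expected rate of 6%, with seed 1. The ratio and its interval were tested on simulated data in which cells of a side differed only in depth and by Poisson counting. Unevenness between cells, as seen here for *Hbb-bs* and *Kera*, was not part of that test. Alternatives changed depth, threshold, scaling, filter and cells kept. Figures used Matplotlib 3.10.9.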

Additional observations from a re-analysis of the deposited data

Results flagged for a closer look

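In 11 cases a gene named by rule was at least 2-fold apart in one direction in tail code 1 and at least 2-fold apart in the other direction in another population. The tail codes are clusters of 1 library and the culture is another library, and none of these differences was tested. In tail code 2 the haemoglobin genes were higher in Scx-high cells, *Hbb-bs* at a ratio of 2.54, *Hbb-bt* at 2.79, *Hba-a1* at 3.79 and *Hba-a2* at 4.64, against 0.0564, 0.0545, 0.0742 and 0.0681 in code 1. In tail code 4 the ratio of *Col2a1* was 0.241, that of *C1qtnf3*, a secreted protein of developing cartilage, 0.343, that of *Col9a3* 0.222 and that of *Col11a1* 0.228, against 4.72, 4.06, 4.76 and 3.47 in code 1, and *Osr2* was at 9.19 against 0.256. In culture code 1 *Pax1* was at 0.478 against 7.83 and *Acta2* at 2.06 against 0.0643. In culture cells with 5000 or more UMIs, *Pax1* was at 0.758 (0.291 to 2.82) and *Acta2* at 0.797 (0.670 to 0.956).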

How the results depend on the processing

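No paired analysis was possible because each condition has 1 library. Lowering the filter on gene UMIs from 100 to 20 gave 313 higher and 527 lower genes, and to 1 it gave 2592 and 2351, in place of 93 and 149. All other alternatives gave 68 to 95 higher and 101 to 195 lower genes. Without cells of 1% or more haemoglobin, the ratios of *Hbb-bs*, *Hbb-bt* and *Hba-a1* turned to 1.02, 1.15 and 1.20, and the median log2 ratio of the erythroid list to 0.11. Without cells of 6 or more mural genes, *Tagln* and *Mcam* turned to 1.02 and 1.31. Without both kinds, these values were 1.03, 1.20, 1.19, 0.15, 1.01 and 1.29, the last from fewer than 100 UMIs. With sides chosen after thinning to 5000 UMIs, which gave 178 Scx-high and 392 Scx-zero cells, the ratio of *Tnmd* was 7.36, of *Col2a1* 2.81, of *Col9a3* 3.08 and of *Fbxo32* 2.19, in place of 12, 4.72, 4.76 and 4.23. Without cells with a UMI of *Top2a* or *Mki67*, that of *Tnmd* was 19.3. With 1 or more *Scx* UMIs on the higher side, *Myh11* was at 0.374 and *Acta2* at 0.374. Genes under 100 UMIs over both sides, such as *Nkx3-2* with 9 and 0 UMIs, were too shallow to read.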

Other observations

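Some genes outside the fixed lists were as far apart as those named. *Uncx*, a homeobox factor of the caudal sclerotome, was at 27.2 CPM in Scx-high and 2.81 CPM in Scx-zero cells (9.69, 5.42 to 18.8), with 46.1 CPM at 20 to 39 *Scx* UMIs and 18.8 CPM at 40 or more. *Prkg2*, a cGMP-dependent kinase (8.62, 5.30 to 14.8), *Reln*, the secreted glycoprotein reelin (5.32, 3.76 to 7.67), *Hlx*, a homeobox factor (4.6, 3.26 to 6.60), and *Nfatc1*, a calcium-regulated transcription factor (2.86, 2.21 to 3.75), were also higher.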
